A study of Mus musculus with 8 samples.

Results

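Naive CD4+ and naive CD8+ T cells of wild-type (WT) mouse spleen were compared within the same unstimulated libraries. The cells were those that the authors' cell table classed as CD4 or CD8 and placed in a naive subset (the cluster names Naive1 to Naive5, with the digit removed), in the 2 libraries labelled WT and Unstimulated. They numbered 2462 of the 2903 cells of those libraries and of the 12846 cells of the series. The CD4 class held 755 cells in replicate 1 and 797 in replicate 2, and the CD8 class held 407 and 503. The remaining cells of the same libraries were labelled Treg, Tem or Tcm and were not used.

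The series measured single-cell RNA from splenic T cells of WT mice and of knockout (KO) mice, in which Sdha fl/fl alleles were deleted by a Cre under the CD4 promoter, with 2 libraries for each genotype and state. Mice were 8 to 12 weeks old. T cells were isolated untouched by negative selection, and dead cells were removed before capture. The unstimulated samples received no antibody, and the stimulated samples were cultured for 48 hours with antibodies to CD3 (5 μg/mL) and CD28 (2.5 μg/mL). The labels do not state that the replicates came from separate mice, so p-values measure the spread between these libraries, which may be technical. Antibody-labelled non-T cells had been depleted, and the subset and class of a cell come from its cluster. The naive label was given by the authors from a few homing, memory and regulatory genes, among them Ccr7, Cd44, Tcf7, Il7r and Foxp3, and the class from the ratio of Cd4 to Cd8a.

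CD4+ and CD8+ T cells arise from a common thymocyte that carries both coreceptors. CD4 binds MHC class II and CD8 binds MHC class I. The transcription factor ThPOK, encoded by Zbtb7b, maintains the CD4 programme and represses CD8 genes, whereas Runx3 silences Cd4 and Zbtb7b and maintains the CD8 programme. Naive cells of both lineages circulate through lymphoid organs in a quiescent state and have not yet met their antigen.

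Unique molecular identifiers (UMIs, counts of captured RNA molecules) were summed per library and class, so that each library gave a CD4 and a CD8 sum. The sums held 5483937 and 6059381 UMIs for CD4 and 3511018 and 4746979 for CD8. A gene at 20 CPM (counts-per-million) had about 70.2 UMIs in the smallest of these sums, for a counting error of 11.9%. The median cell held 7102 and 7496 UMIs in the CD4 class of replicates 1 and 2, and 8502 and 9283 in the CD8 class. Median mitochondrial percentages were 3.95 and 3.87 in CD4 and 4.25 and 4.09 in CD8. The 2 libraries shared 1 cell barcode among their naive cells.

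The coreceptor genes followed the class labels. Cd4 was measured at 146 and 146 CPM in the CD4 sums and at 0.599 and 1.55 CPM in the CD8 sums, where CPM are scaled by the trimmed mean of M-values (TMM). Cd8a, the α chain of CD8, stood at 313 and 328 CPM in CD8 and at 1.57 and 3.95 CPM in CD4. Cd8b1, the β chain, stood at 970.1 and 976 CPM in CD8 and at 15.2 and 19.1 CPM in CD4. None of the 3 genes had overlapping classes. Zbtb7b was measured at 30.4 and 34.6 CPM in CD4, and the CD8 sums held 1 UMI of it against 393 in CD4. That ratio is 281-fold, with an exact 95% counting interval of 50.2 to 11133. Since clusters were classed by Cd4 and Cd8a, these levels are a description.

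The labels of single cells were less sharp than the sums. A Cd4 UMI was found in 64.8% and 66.0% of the cells of the CD4 class and in 0.491% and 0.795% of the CD8 class. A Cd8a or Cd8b1 UMI was found in 99.0% and 99.2% of CD8-class cells and in 9.14% and 10.2% of CD4-class cells. Cd8b1 carried most of the latter, with 70.1% and 70.2% of its CD4-class UMIs in the top 5% of cells (38 and 40 cells). Without the 51 and 54 CD4-class cells and the 2 and 4 CD8-class cells that held UMIs of both coreceptors, 1954 genes passed the test described next, against 2399 with them.

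Among 10330 tested genes, 2399 (23.2%) differed between naive CD4 and CD8 cells at an adjusted p under 0.05 in edgeR's quasi-likelihood test with the library as a block. Of these, 1151 (11.1%) were higher in CD4 and 1248 (12.1%) were higher in CD8. The differences were mostly small, with a median absolute log2 fold change of 0.51 among the called genes. At least 1 on the log2 scale (a 2-fold difference) was reached by 280 genes higher in CD4 and 296 higher in CD8, and at least 4 by 17 and 37. In 2389 of the 2399 genes the sign was the same in each library. Replicate sums of a class differed by more than counting error over genes (chi-square per degree of freedom 1.61 in CD4 and 1.51 in CD8), but the fit had 1 residual degree of freedom and a fitted spread of 1.90%. Its p-values lie close to counting error, and DESeq2's Wald test called 560 genes on the same sums. In a fit of all 4 unstimulated libraries, leaving out WT replicate 1 gave 1535 genes and leaving out WT replicate 2 gave 1151.

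The classes and clusters were made from the same counts, so these p-values are no test that the classes exist. When the naive cells were classed by their own coreceptor UMIs alone, ignoring the cluster class, 2096 genes were called. Of the 2331 main genes that could be tested that way, 1908 were called in the same direction (81.9%) and 2330 had the same sign. Scaling by library totals in place of TMM moved the median of all genes by 0.13 on the log2 scale and gave 2245 genes higher in CD4 and 780 higher in CD8. The 24 leading genes below kept their sign in every alternative, and 23 of them passed in every alternative (Adgrg5 did not in DESeq2). They also kept it between the CD4 and CD8 cells of each cluster name, Naive1 to Naive4, where they could be tested. Class was given by cluster, so CD4 and CD8 cells that share a name may lie in different clusters. Adgrg5 could be tested for 2 of those names, and Zbtb7b, Chn2, Acvrl1 and Haao for 3. For Cd4, Cd8a and Cd8b1 the outcome is fixed by how the classes were made, by cluster or by coreceptor UMIs, and lends no support. The other leading genes were picked for their large differences in the same counts. The alternatives mostly reuse those counts, so agreement among them was largely set in advance.

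**Figure D1:**
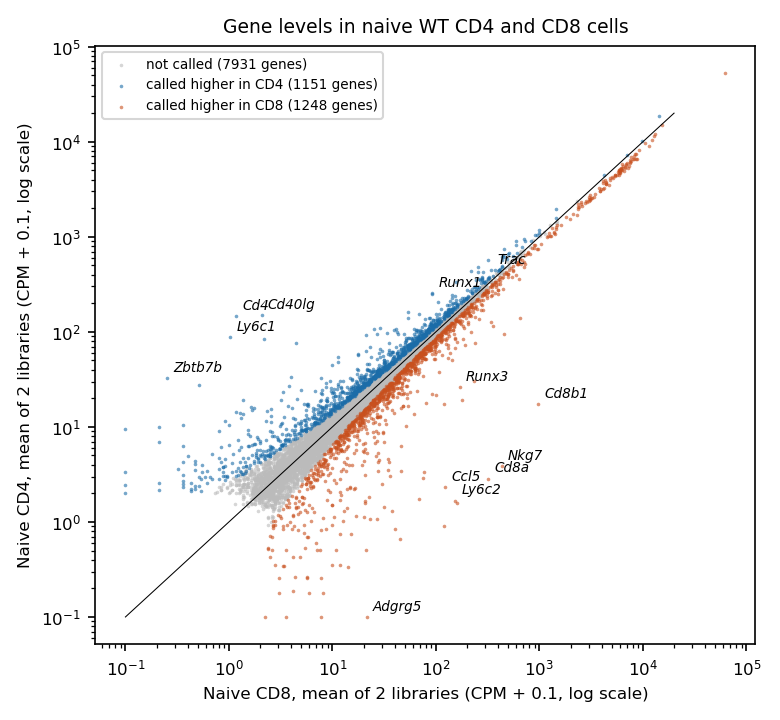
Mean level of each tested gene in naive WT CD4 cells (vertical axis) against naive WT CD8 cells (horizontal axis), in TMM-scaled CPM plus 0.1 on log scales, each point a gene and each mean over 2 libraries. Most of the 10330 genes lie along the diagonal line of equal levels, while Cd4, Zbtb7b, Cd40lg and Ly6c1 lie far above it and Adgrg5, Cd8a, Cd8b1 and Nkg7 far below.

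The 12 largest differences in each direction were taken among called genes whose higher class averaged 20 CPM or more. Both libraries also had to differ in the same direction. Higher in CD4 were Zbtb7b, Cd4, Ly6c1, Cd40lg, Myo10, St8sia6, Pdlim4, Itgb3, Chn2, Acvrl1, Ptms and Stmn1, with adjusted p of at most 3.29e-27. Cd40lg encodes CD40 ligand, the molecule by which helper T cells license B cells and dendritic cells. It stood at 150.4 and 149 CPM in CD4 and at 2.40 and 1.55 CPM in CD8, a log2 difference of 6.27 (SE 0.17). St8sia6, a sialyltransferase, stood at 78.7 and 87.9 CPM in CD4 and at 1.5 and 2.65 in CD8. Myo10, an unconventional myosin, was found in 332 UMIs of the CD4 sums and 3 of the CD8 sums, a ratio of 79.2 with a counting interval of 26.9 to 386. Itgb3, the β3 integrin chain, measured 29.5 and 36.6 CPM against 4.50 and 3.31. Stmn1, a microtubule-destabilising protein, measured 55.3 and 52.1 against 14.1 and 8.40, the smallest difference of the 12 (2.30, SE 0.14). The classes overlapped in none of the 12, which follows from how these genes were picked and lends no support.

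Higher in CD8 were Adgrg5, Plac8, Cd8a, Nkg7, Gm44174, Ly6c2, Gm43698, Ccl5, Cd8b1, Itgae, Haao and Cxcr6. Adgrg5, an adhesion G protein-coupled receptor, had no UMI among the 11543318 of the CD4 sums and 169 among the 8257997 of the CD8 sums, which is at least 78.7-fold higher against a floor of 3 UMIs over the CD4 class. Nkg7, a granule protein of cytotoxic lymphocytes, stood at 444 and 421 CPM in CD8 and at 2.27 and 5.21 in CD4. Plac8 measured 101 and 141 CPM in CD8 and 0.524 and 1.10 in CD4. Itgae, the αE integrin chain CD103, measured 44.4 and 36 CPM in CD8 and 0.698 and 0.789 in CD4. Cxcr6, a chemokine receptor, measured 68.0 and 67.6 CPM against 1.75 and 1.58. The lack of overlap between the classes in these genes likewise follows from how they were picked.

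**Figure D2:**
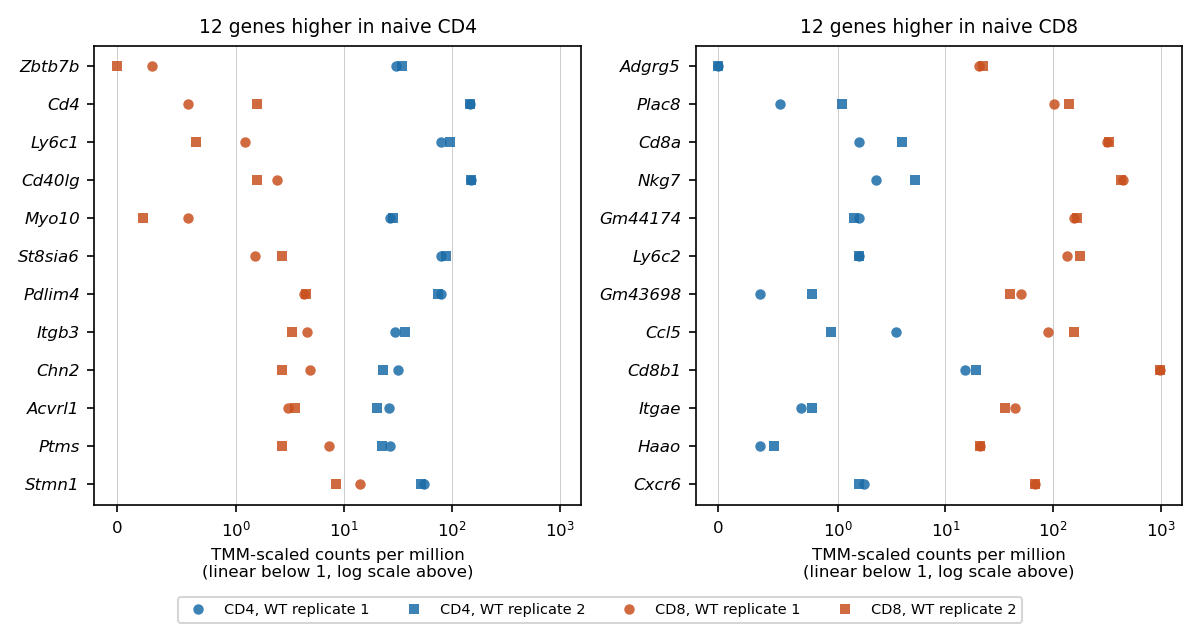
Levels of the 24 leading genes, 12 higher in naive CD4 (left) and 12 higher in naive CD8 (right), in TMM-scaled CPM on an axis that is linear below 1 and logarithmic above, with 1 point per library and class (circle, WT replicate 1; square, WT replicate 2). In every gene the points of the higher class lie right of those of the lower class, and Adgrg5 lies at 0 in both CD4 sums.

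The leading genes ranged from nearly all cells of their class to a small fraction. After each cell was thinned to 3000 UMIs, Nkg7 was found in 66.6% and 62.2% of CD8 cells and in 0.533% and 0.627% of CD4 cells, and Cd40lg in 35.6% and 37.1% of CD4 cells and 0.737% and 0% of CD8 cells. Before thinning, the Nkg7 shares were 90.7% and 90.5% in CD8 and 1.06% and 1.38% in CD4. Ccl5, a chemokine of memory and effector CD8 cells, was found in 8.11% and 14.3% of CD8 cells before thinning. The top 5% of CD8 cells (21 and 26 cells) held 96.0% and 86.9% of its UMIs, up to 69 in a cell. For Nkg7 the same share was 14.4% and 15.7%. Chn2 was also uneven, found in 12.8% and 12.55% of CD4 cells with 67.0% and 58.6% of its UMIs in the top 5%. Myo10, found in 16.3% and 17.4% of CD4 cells, and Adgrg5, in 14.5% and 17.1% of CD8 cells, had 44.1% and 45.0%, and 44.1% and 40.6%, of their UMIs there. The 89.0 and 157 CPM of Ccl5 in the CD8 sums thus came from a small fraction of the class. Eomes, Cxcr3 and Il2rb, genes of memory-type CD8 cells, were found in 5.90% and 7.95%, 5.16% and 8.95%, and 20.4% and 26.4% of CD8 cells.

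**Figure D3:**
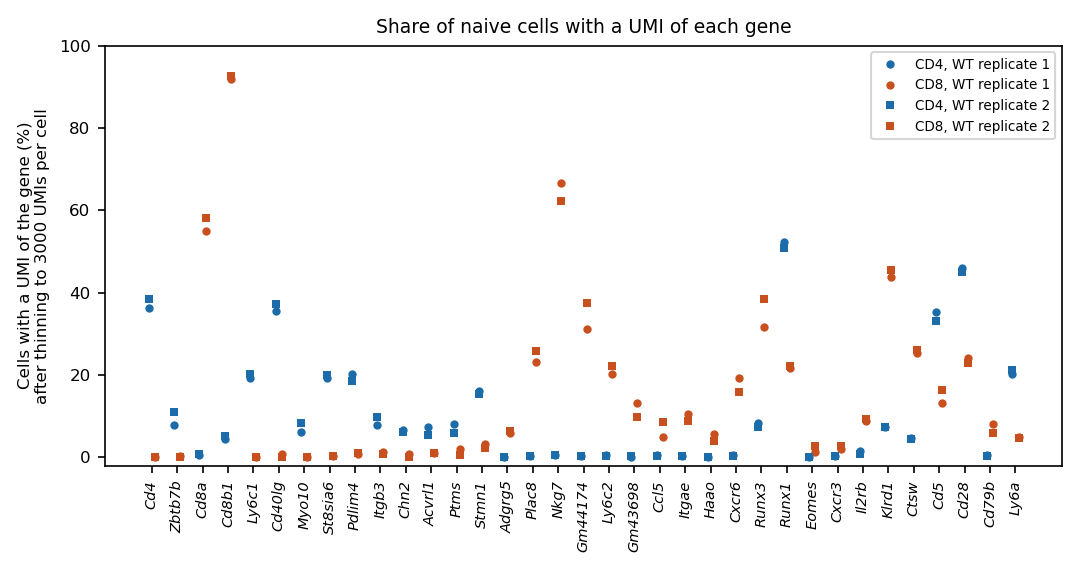
Percentage of naive cells with at least 1 UMI of each gene after thinning every cell to 3000 UMIs, by class (blue, CD4; orange, CD8) and library (circle, WT replicate 1; square, WT replicate 2). Cd8b1 was found in 91.9% and 92.6% of CD8 cells and Nkg7 in 66.6% and 62.2%, while Ccl5 reached 4.91% and 8.57% and Eomes 1.23% and 2.79%.

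The Ly6 genes on chromosome 15 moved in opposite directions. Ly6c1 stood at 78.7 and 96.3 CPM in CD4 and at 1.20 and 0.663 in CD8, a log2 difference of 6.60 (SE 0.22). Ly6c2 stood at 1.57 and 1.58 CPM in CD4 and at 134 and 175 in CD8, a log2 difference of -6.60 (SE 0.15). Together they encode the surface antigen Ly-6C. Ly6a, which encodes Sca-1, measured 85.7 and 98.0 CPM in CD4 and 18.0 and 24.3 in CD8. All 3 lie on the minus strand, with Ly6c1 at chr15:75044018-75048830 and Ly6c2 at chr15:75108158-75111970 (GRCm38, GENCODE M21). The longest coding transcripts of Ly6c1 and Ly6c2 are 95.0% identical in a global alignment (802 identical, 20 mismatched and 22 gapped positions), and their last 300 bases are 93.5% identical. Reads could be divided between such copies by the counting, so the 2 levels are uncertain, although the genes differed by opposite signs in each library.

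The promoters of the leading genes were read to look at the letters that RUNX factors bind. The windows run from 250 bases before to 50 bases after the annotated start (RefSeq, GRCm38.p6), and capitals mark TGTGGT or TGCGGT on either strand. They are shown for Cd8a and Nkg7, which were higher in CD8, for the opposite paralogs Ly6c1 and Ly6c2, and for Zbtb7b and Plac8, at the start whose window held a match.
Cd8a, chr6:71373177-71373476, + strand: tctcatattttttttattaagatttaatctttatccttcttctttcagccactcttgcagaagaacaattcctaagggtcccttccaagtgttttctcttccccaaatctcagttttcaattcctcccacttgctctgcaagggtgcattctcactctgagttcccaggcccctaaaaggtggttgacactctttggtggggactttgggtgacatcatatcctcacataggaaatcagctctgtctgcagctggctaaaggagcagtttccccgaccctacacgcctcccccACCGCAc
Nkg7, chr7:43436888-43437187, + strand: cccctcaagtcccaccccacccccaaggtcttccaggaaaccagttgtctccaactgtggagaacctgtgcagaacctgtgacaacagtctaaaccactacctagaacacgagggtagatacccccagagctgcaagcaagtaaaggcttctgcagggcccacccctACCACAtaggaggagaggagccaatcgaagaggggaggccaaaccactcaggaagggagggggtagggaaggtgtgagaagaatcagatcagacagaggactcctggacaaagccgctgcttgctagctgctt
Plac8, chr5:100572156-100572455, - strand: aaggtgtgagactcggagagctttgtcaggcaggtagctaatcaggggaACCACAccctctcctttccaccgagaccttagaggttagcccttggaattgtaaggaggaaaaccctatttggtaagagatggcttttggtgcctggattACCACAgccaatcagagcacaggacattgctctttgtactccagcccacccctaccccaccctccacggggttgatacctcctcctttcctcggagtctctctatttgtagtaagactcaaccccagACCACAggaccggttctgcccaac
Ly6c2, chr15:75111888-75112187, - strand: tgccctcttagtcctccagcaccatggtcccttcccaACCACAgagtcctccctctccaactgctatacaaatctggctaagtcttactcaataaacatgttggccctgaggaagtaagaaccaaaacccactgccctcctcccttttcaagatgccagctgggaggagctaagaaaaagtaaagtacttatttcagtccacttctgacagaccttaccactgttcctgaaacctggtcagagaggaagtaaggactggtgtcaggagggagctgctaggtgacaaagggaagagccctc
Ly6c1, chr15:75048614-75048913, - strand: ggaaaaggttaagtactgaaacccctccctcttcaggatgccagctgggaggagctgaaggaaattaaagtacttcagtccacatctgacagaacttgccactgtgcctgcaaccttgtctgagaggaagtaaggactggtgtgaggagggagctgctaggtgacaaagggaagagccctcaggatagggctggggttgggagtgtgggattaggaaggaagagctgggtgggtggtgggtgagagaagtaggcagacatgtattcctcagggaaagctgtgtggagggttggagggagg
Zbtb7b, chr3:89387622-89387921, - strand: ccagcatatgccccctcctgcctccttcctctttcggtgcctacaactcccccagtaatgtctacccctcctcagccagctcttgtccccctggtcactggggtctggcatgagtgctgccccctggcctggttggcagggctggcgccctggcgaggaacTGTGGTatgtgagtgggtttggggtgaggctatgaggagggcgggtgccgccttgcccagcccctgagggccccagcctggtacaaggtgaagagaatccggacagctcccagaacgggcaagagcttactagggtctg

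Of the 24 leading genes, 14 had a promoter entry, and Cd4, Cd8b1, Cd40lg, Acvrl1, Ccl5, Gm43698, Gm44174, Itgae, Itgb3 and Stmn1 did not. A match stood in at least 1 promoter of 6 of the 7 matched genes higher in CD8 (Adgrg5, Cd8a, Cxcr6, Ly6c2, Nkg7 and Plac8, but not Haao) and of 1 of the 7 higher in CD4 (Zbtb7b). Plac8 held 3 matches in the window above. Counted by gene in the same way, 25% of all genes and 25% of the tested genes had a match in at least 1 promoter, as did 38% of genes higher in CD8 and 25% of genes higher in CD4 by 2-fold or more. Over all 32851 promoters 22.4% held a match, and over those of the tested genes 21.5%. Promoters on chr18 were left out of all these shares. For called genes with a 2-fold difference or more, the share was 32.9% of 280 promoters of genes higher in CD8 and 19.4% of 284 of genes higher in CD4. Median GC contents of those promoters were 57.5% and 60.7%, against 60.7% for the tested genes and 52.7% over all promoters, and the part of base composition was not tested. The letters were chosen with the values known, and a match is not evidence of binding.

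Several transcripts beside the lineage genes differed in the same direction as these. Windows of 100 kb on either side, chosen after the values were seen, held 7 tested genes around and including Cd8b1 and Cd8a. Of these, 6 were higher in CD8, Cd8b1 and Cd8a among them, and none in CD4. Between Cd8b1 (chr6:71322788-71337494) and Cd8a (chr6:71373427-71379173) lie the lincRNAs Gm44174 (chr6:71353035-71373284, + strand) and Gm44175 (chr6:71354351-71360829, - strand). Gm44174 ends 143 bases before Cd8a and stood at 155 and 167 CPM in CD8 and at 1.57 and 1.42 in CD4. Gm44175 had 112 UMIs in the CD8 sums and 3 in the CD4 sums, a ratio of 52.2 with a counting interval of 17.4 to 257. Gm44174 and Gm44175 overlap on opposite strands and Gm44174 runs up to Cd8a, so reads may be shared among them. Smyd1, a muscle histone methyltransferase gene directly before Cd8b1, measured 5.99 and 6.19 CPM in CD8 and 1.05 and 0.789 in CD4 (log2 -2.71, SE 0.46).

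Around Zbtb7b, 4 of 10 tested genes were higher in CD4, Zbtb7b itself among them, and none in CD8. Gm15417, an antisense transcript that overlaps Zbtb7b (chr3:89391850-89398779), stood at 8.20 and 12.3 CPM in CD4 and at 0.899 and 0.884 in CD8. Dcst2 had 28 UMIs in the CD4 sums and none in the CD8 sums, at least 6.68-fold higher against the floor of 3 UMIs. Adam15 had 26 UMIs in CD4 and 3 in CD8, a ratio of 6.20 with an interval of 1.90 to 32.0. Around Runx3, 2 of 3 tested genes were higher in CD8, namely Runx3 itself and Gm16225, a lincRNA that starts on the other strand beside it and stood at 5.69 and 2.43 CPM in CD8 and at 0.175 and 0.473 in CD4. Around Cd4, 2 of 7 were higher in CD4. They were Cd4 and Ptms (chr6:124913681-124920103), which encodes parathymosin and stood at 26.4 and 22.4 CPM in CD4 and 7.19 and 2.65 in CD8, while Tpi1 was higher in CD8. The counts include the locus genes themselves, which were picked because they differ, so they are a description. Over all tested genes 11.1% were higher in CD4 and 12.1% in CD8, and counts that include picked genes cannot be tested against these shares.

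Of the 34 coreceptors and lineage transcription factors listed, 31 were tested, 16 were higher in CD4, 9 were higher in CD8 and 6 were not called (11.1% and 12.1% of all tested genes were higher in CD4 and in CD8), with a median log2 difference of 0.18 against 0.00 over all genes. These counts include Cd4, Cd8a and Cd8b1, whose calls were fixed by how the classes were made, and the class marker Zbtb7b. Runx3 stood at 164 and 177 CPM in CD8 and at 27.9 and 24.1 in CD4 (log2 -2.72, SE 0.09). Runx1, its paralog, ran the other way, at 260 and 249.97 CPM in CD4 and 92.0 and 92.4 in CD8 (log2 1.46, SE 0.07). Both proteins bind the same motif. Eomes, a T-box factor of memory and cytotoxic cells, had 92 UMIs in the CD8 sums and 3 in the CD4 sums, a ratio of 42.9 with a counting interval of 14.2 to 212. Gata3, a factor of CD4 development chosen here after its values were seen, stood at 33.2 and 32.7 CPM in CD4 and 18.9 and 19.4 in CD8. Prdm1 was low in each class, at 2.79 and 4.42 CPM in CD4 and 1.80 and 1.10 in CD8.

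Components of the T cell receptor (TCR) complex differed by little. Of 39 genes of the receptor, CD3 and proximal signaling, 16 were higher in CD4, 9 higher in CD8 and 14 not called, with a median of 0.07, against the same shares of all genes. Trac, the TCR α constant chain, stood at 437 and 453 CPM in CD4 and 333 and 352 in CD8 (log2 0.38, SE 0.05). Cd247, the ζ chain, stood at 359 and 376 against 266 and 290 (0.40, SE 0.06). Themis, a regulator of TCR signaling in thymocytes, was higher in CD8, at 546 and 574 CPM against 431 and 437 (log2 -0.37, SE 0.05). Cd3d and Cd3e, chosen after their values were seen, were higher in CD8 by less (log2 -0.34 and -0.16). Lck, the kinase carried by both coreceptors, was not called (log2 -0.08, adjusted p = 0.310).

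Genes listed as related to TCR signal strength leaned to CD4. Of 22 such genes 20 were tested, with 10 higher in CD4, 4 higher in CD8 and a median of 0.71, the largest positive median among lists with more than 10 tested genes. Over all tested genes 11.1% were higher in CD4 and 12.1% in CD8. In naive KO cells the median of the list was only 0.06, with 7 genes higher in CD4 and 4 higher in CD8. Nr4a1, an immediate early gene induced by the TCR, stood at 12.6 and 12.3 CPM in CD4 and 0.899 and 1.55 in CD8 (log2 3.27, SE 0.35). Izumo1r, the folate receptor FR4, stood at 57.2 and 56.5 CPM against 21.3 and 13.5 (1.75, SE 0.13), and Irf4 at 12.6 and 11.99 against 4.2 and 3.98 (1.58, SE 0.26). Cd5, a negative regulator of TCR signaling chosen after its values were seen, stood at 158 and 151 CPM against 65.6 and 72.5 (log2 1.15, SE 0.08). The list also holds Ly6c1, its largest difference toward CD4 (log2 6.60, SE 0.22), and Ly6c2. Members were not split by whether TCR signal raises or lowers them, so the counts and median are no measure of signal strength. In the CD8 direction, besides Ly6c2, lay Ptpn22, an inhibitory phosphatase (log2 -0.84, SE 0.07), Myc (-0.66, SE 0.13) and Nr4a2 (-1.12, SE 0.33). Egr2 and Cd69 were not called, and Cd69 measured 92.7 and 81.0 CPM in CD4 and 103 and 83.5 in CD8. The immediate early and heat shock genes, which also respond to tissue handling, had 8 members higher in CD4, 3 higher in CD8 and 7 not called, with Junb at 448 and 409 CPM against 279 and 229. The part of cell handling in these differences was not tested.

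Costimulatory and inhibitory receptors divided between the classes, 8 higher in CD4, 6 higher in CD8 and 10 not called of 24 tested, where all tested genes had 11.1% and 12.1%. Besides Cd40lg, the CD4 direction held Cd200 (11.3 and 13.6 CPM against 3.30 and 3.31), Tnfrsf25 (16.9 and 21.3 against 8.09 and 7.29) and Ctla4. Cd28, chosen after its values were seen, stood at 208 and 208 CPM in CD4 and 110.0 and 97.9 in CD8 (log2 1.01, SE 0.07). The CD8 direction held Cd226, an activating receptor, at 236 and 242 CPM against 77.8 and 76.1 (log2 -1.64, SE 0.07), Crtam at 27.3 and 24.7 against 4.89 and 4.73, and Cd160 at 10.2 and 17.2 against 1.75 and 2.52. Pdcd1, Lag3, Havcr2 and Tigit did not pass the filter on low counts.

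Some homing receptors were among the genes with the largest CD8 differences. Of 26 tested, 7 were higher in CD4, 8 higher in CD8 and 11 not called, with a median of -0.005. All tested genes had 11.1% higher in CD4 and 12.1% higher in CD8. Ccr9, a chemokine receptor for the small intestine, stood at 84.8 and 69.6 CPM in CD8 and at 2.62 and 3.95 in CD4 (log2 -4.52, SE 0.16), beside Itgae and Cxcr6. Gpr183, which guides cells by oxysterols, stood at 319 and 356 CPM in CD4 and 159 and 154 in CD8 (log2 1.12, SE 0.06). Among the 10 naive T cell markers, 6 were higher in CD4, 3 higher in CD8 and Il7r was not called, against the same shares of all genes. Igfbp4 led in CD4 at 263 and 242 CPM against 99.5 and 85.5, and Dapl1 in CD8 at 665 and 616 against 374 and 351.

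Cytokine receptors and their signaling genes had 11 members higher in CD4, 10 higher in CD8 and 19 not called of 40, where 11.1% and 12.1% of all tested genes were called in those directions. Il2rb, the β chain of the IL-2 and IL-15 receptors, stood at 30.3 and 38.4 CPM in CD8 and 4.54 and 4.42 in CD4 (log2 -2.94, SE 0.19). Ifngr1 was higher in CD8 (111 and 101 CPM against 63.2 and 63.0), whereas Ifngr2 was higher in CD4 (45.0 and 35.7 against 25.8 and 23.9). Tgfbr3, the TGF-β co-receptor betaglycan, measured 106 and 104 CPM in CD4 and 42.9 and 35.4 in CD8 (log2 1.44, SE 0.09). Il7r and Il2rg, which naive cells need for survival signals, were not called (log2 -0.08 and -0.02).

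Genes of cytotoxicity and natural killer (NK) receptors were detected mainly in CD8, while granzyme genes stayed under the filter. The 30 listed genes together made up 0.00879% and 0.00850% of UMIs in CD4 and 0.0927% and 0.0973% in CD8. Only 8 passed the filter on low counts, which a gene could pass through the class where it is high. Klrd1, the CD94 receptor chain, stood at 235 and 233 CPM in CD8 and 30.4 and 30.1 in CD4, and Cst7 at 35.1 and 34.2 against 2.79 and 4.10. Prf1, which encodes perforin, stood at 29.1 and 22.98 CPM against 15.4 and 14.7 (log2 -0.78, SE 0.15). Gzma, Gzmb and Gzmk did not pass the filter, and neither did Ifng. Fasl was the member higher in CD4, with 74 UMIs against 2, a ratio of 26.5 with a counting interval of 7.07 to 223. Of 12 tested memory and effector markers, 2 were higher in CD4, 7 higher in CD8 and 3 not called, with a median of -0.45. Over all tested genes 11.1% were higher in CD4 and 12.1% higher in CD8. The 2 higher in CD4 were Cd44 at 17.3 and 14.7 CPM against 6.89 and 8.40 (log2 1.03, SE 0.21), and Maf at 10.5 and 7.73 against 1.5 and 1.33. Ahnak was higher in CD8 at 31.5 and 30.3 CPM against 9.95 and 7.73.

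Of 45 interferon-stimulated genes tested, 14 were higher in CD4, 7 higher in CD8 and 24 not called, with a median of 0.15, beside 11.1% and 12.1% of all tested genes higher in CD4 and in CD8. With cells classed by their own coreceptor UMIs, 7 were higher in CD4 and 8 in CD8 (median 0.07), beside 983 and 1113 of 9757 tested genes. DESeq2's Wald test called 3 higher in CD4 and 0 in CD8, beside 185 and 375 of 10330. Ifit2 stood at 28.6 and 31.4 CPM in CD4 and 10.5 and 12.8 in CD8 (log2 1.35, SE 0.16), and Iigp1 at 21.8 and 14.99 against 6.29 and 8.62. Gbp2, Gbp3, Gbp6 and Ifi214 lay in the CD8 direction. Of 23 genes of MHC class I presentation, 1 was higher in CD4 (Pdia3), 12 higher in CD8 and 10 not called. H2-Q6 stood at 119 and 94.3 CPM in CD8 and 40.7 and 33.9 in CD4, and H2-Q7 at 583 and 605 against 405 and 385. The H2-Q genes are near copies of each other and their split is uncertain. H2-K1 was not called (log2 -0.04).

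Quiescence genes leaned to CD4, with 12 higher in CD4, 5 higher in CD8 and 9 not called of 26, against 11.1% and 12.1% of all tested genes in each direction. The median was 0.19 (0.096 in replicate 1 and 0.31 in replicate 2). Rb1, the retinoblastoma tumor suppressor, stood at 62.7 and 67.9 CPM in CD4 and 27.6 and 30.1 in CD8 (log2 1.18, SE 0.11). Slfn1 stood at 144 and 133 against 89.0 and 87.7 (0.64, SE 0.08) and Btg2 at 171 and 232 against 143 and 148 (0.48, SE 0.07). Klf3 was higher in CD8 at 198 and 228 CPM against 157 and 176 (log2 -0.36, SE 0.06). So were Dapl1 (log2 -0.82, SE 0.05), Pdcd4 (-0.19, SE 0.05) and Klf2 (-0.17, SE 0.05).

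**Figure D4:**
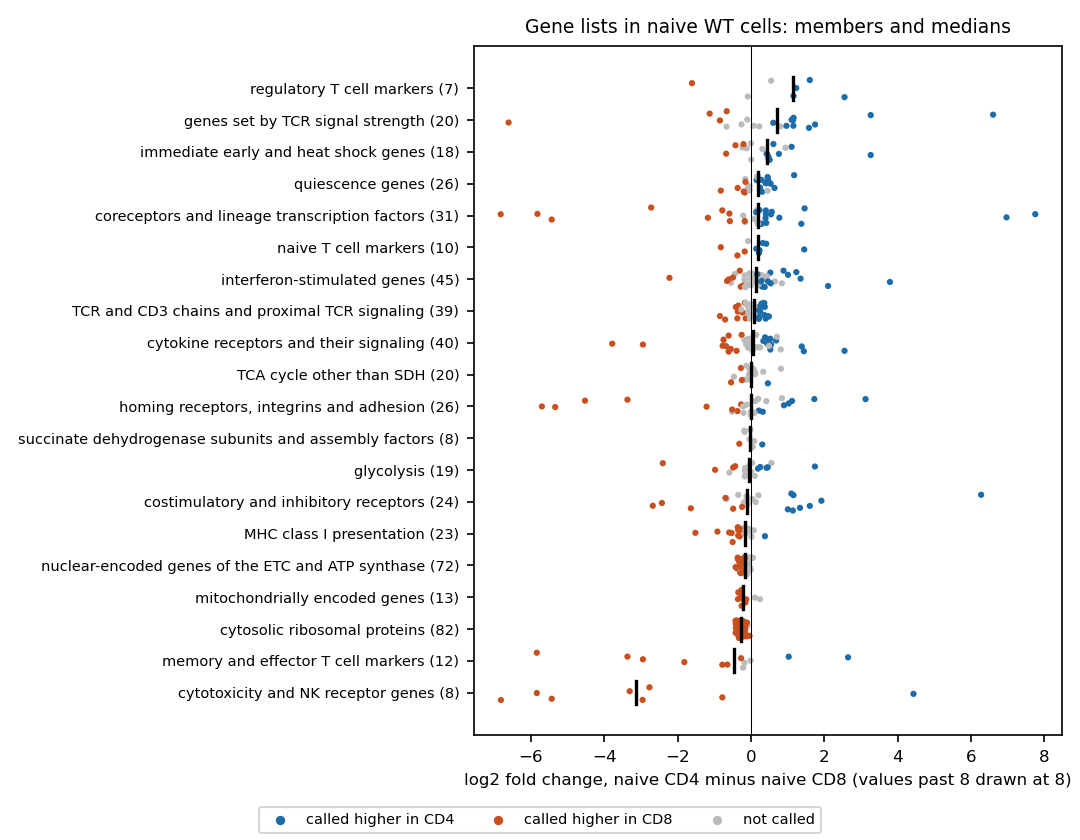
Log2 fold change of CD4 minus CD8 in naive WT cells for the tested members of each gene list with at least 5 tested members (number tested in brackets), 1 point per gene, blue where called higher in CD4, orange where called higher in CD8 and gray where not called, with the list median as a black bar. The lineage and homing lists spread in each direction, the signal strength genes have a median of 0.71, the cytotoxicity list shows the 8 of 30 genes that passed the filter, and the ribosomal protein genes lie in a narrow band around -0.28.

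The ribosomal protein genes showed a small and uniform difference. Of 82 genes, 81 were higher in CD8 and Rpl31 was not called, with a median of -0.28. Over all tested genes 12.1% were higher in CD8. As a share of all UMIs, which needs no scaling factor, they made up 36.8% and 36.9% in CD4 and 40.4% and 40.4% in CD8. Rpsa led at 6643 and 6606 CPM in CD8 against 5013 and 4893 in CD4 (log2 -0.42, SE 0.01). Between the largest CD4 cluster (Naive2) and the largest CD8 cluster (Naive1) its difference was 0.02. Within single cluster names, which may cover different clusters of the classes, it lay between -0.61 and -0.14. With library totals in place of TMM the median was -0.14, with 68 genes higher in CD8 and 1 higher in CD4, while the median of all genes lay at 0.13. Of all 10330 tested genes, 780 were then higher in CD8 and 2245 higher in CD4.

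Genes of oxidative phosphorylation followed with smaller differences. Of the 13 mitochondrially encoded genes 11 were higher in CD8 (median -0.21), led by mt-Nd2 at 3383 and 3326 CPM against 2643 and 2614, and mt-Nd6 and mt-Atp8 were not called. Of 72 genes for nuclear-encoded subunits of the respiratory complexes and ATP synthase 36 were higher in CD8 and none in CD4 (median -0.17). Over all tested genes 12.1% were higher in CD8 and 11.1% in CD4. Cox8a stood at 518 and 481 CPM in CD8 and 387 and 361 in CD4 (log2 -0.42, SE 0.05). These calls depended on the scaling. With library totals 9 mitochondrially encoded genes were higher in CD8 and 2 in CD4 (median -0.08), and of the nuclear-encoded genes 5 were higher in CD8 and 2 in CD4 (median -0.04). With that scaling 780 of all 10330 tested genes were higher in CD8 and 2245 in CD4. In glycolysis, 5 genes were higher in CD4, 4 in CD8 and 10 not called of 19, beside 23.2% of all tested genes called. Ldhb, a lactate dehydrogenase chain, stood at 28.1 and 29.0 CPM in CD4 and 8.69 and 8.40 in CD8 (log2 1.74, SE 0.17), and Pkm at 143 and 140.4 against 108 and 98.1. Hk2, a hexokinase, was higher in CD8 at 3.60 and 4.42 CPM against 0.873 and 0.631.

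Succinate dehydrogenase (SDH), complex II of the chain and the enzyme that the series deletes, differed little between the classes of WT mice. Sdha, the flavoprotein subunit, stood at 88.1 and 88.7 CPM in CD4 and 79.4 and 86.4 in CD8 (log2 0.09, SE 0.08, adjusted p = 0.493). Sdhb stood at 71.7 and 62.0 against 65.6 and 70.3 (adjusted p = 0.819) and Sdhc at 25.3 and 25.4 against 29.1 and 28.5 (adjusted p = 0.352). Sdhd, a membrane anchor, was higher in CD8 at 43.8 and 44.0 CPM against 34.2 and 36.1 (log2 -0.32, SE 0.11, adjusted p = 0.0216), a call that held in 9 of 18 alternatives. Among assembly factors Sdhaf1 was called higher in CD4 (log2 0.31, SE 0.12, adjusted p = 0.0494), in 4 of 18 alternatives. The tricarboxylic acid cycle genes other than SDH had 1 member higher in CD4 (Pdha1), 3 higher in CD8 (Idh3a, Idh3g and Mdh1) and 16 not called, a share near the 23.2% called over all tested genes. Between the largest cluster of each class Idh3g and Mdh1 had the other sign (0.03 and 0.16).

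Markers of other cells were low in the naive sums. Lyz2 and Ncr1 had no UMI, and the B cell, myeloid, NK and erythroid list of 25 genes made up 0.0214% and 0.0202% of UMIs in CD4 and 0.0219% and 0.0231% in CD8, most of it Ighm. Cd79b, a chain of the B cell receptor, was nevertheless higher in CD8 (21.6 and 19.0 CPM against 1.40 and 0.631) and was found in 14.0% and 15.3% of CD8 cells. Its partner Cd79a had 9 and 15 UMIs in the CD4 sums and 1 and 3 in the CD8 sums. Trdc, the TCR δ constant chain, had 47 and 37 UMIs in CD4 and 35 and 59 in CD8 and was found in 3.84% and 3.14% of CD4 cells and 3.19% and 2.39% of CD8 cells. Without those cells 2148 genes were called. Foxp3 had 13 and 7 UMIs in CD4 and 0 and 2 in CD8, and of the regulatory T cell markers Il2ra, Tnfrsf4, Capg and Ctla4 were higher in CD4 and Ikzf2 in CD8. Over all WT cells classed by their own coreceptor UMIs, regulatory T cells included, Ikzf2 was higher in CD4 (1.61). The part of a few regulatory or memory cells in these differences was not tested.

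The naive CD4 to CD8 contrast was measured again in the 2 unstimulated KO libraries, with 2113 CD4 and 560 CD8 naive cells. Scaled to the total of each sum, Sdha stood at 42.6 and 42.4 CPM in KO CD4 and 28.8 and 30.1 in KO CD8, against 92.1 and 92.7 in WT CD4 and 75.5 and 82.4 in WT CD8. The contrast called 2224 of 10718 genes in KO (20.8%). Of the 2399 WT genes, 1455 were called in the same direction in KO, which is 60.7% of the WT genes and 65.4% of the KO genes, and 3 in the opposite direction. All 24 leading genes were called in the same direction, which for the coreceptor genes Cd4, Cd8a and Cd8b1 follows from how the KO classes were made. The difference between genotypes itself was called for 51 genes (0.476% of those tested), of which 2 were leading genes, Acvrl1 and Stmn1.

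Klrd1 alone was also called without the library block. In the fit of all 4 unstimulated libraries Klrd1 stood at 31.3 and 31.1 CPM in CD4 and 242 and 239 in CD8 in WT, and at 6.55 and 3.61 in CD4 and 134 and 115 in CD8 in KO, so its class difference was -2.95 in WT and -4.63 in KO on the log2 scale (edgeR adjusted p of the difference 2.92e-07). Ms4a4c, a membrane protein gene, went from 19.2 and 24.9 CPM in CD4 and 82.8 and 122 in CD8 in WT to 42.0 and 22.3 in CD4 and 62.4 and 34.7 in CD8 in KO. Ifit3, an interferon-stimulated gene, was not called between the WT classes and was higher in CD4 in KO, at 24.7 and 18.9 CPM against 12.04 and 7.01. Without the library block 1 gene was called in place of 51, and DESeq2 called 22.

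After 48 hours of stimulation, most leading genes still differed in the same direction. Stimulated WT cells of any subset numbered 1826 CD4 and 1678 CD8, and 4036 of 13594 genes differed between their classes (29.7%). Leaving out naive replicate 2 lowered the number of genes whose class difference itself changed between states from 1708 to 758, and replicate 1 to 1082. Of the 2399 naive genes, 850 were called in the same direction in stimulated cells (35.4%), 418 in the opposite direction and 1131 were not called. The difference between states was called for 1708 genes (12.6%). Among the 24 leading genes, 20 were called in the same direction after stimulation and 20 were called as differing between states. For the coreceptor genes Cd4, Cd8a and Cd8b1 the same direction follows from how the stimulated classes were made. Zbtb7b had a log2 difference of 7.94 in naive cells and 2.42 in stimulated cells, with 8.68 and 8.70 CPM in stimulated CD4 and 1.53 and 1.71 in stimulated CD8. The naive value depends on the prior count, since naive CD8 held 1 UMI. Scaled to the total of each sum, Nkg7 stood at 79.8 and 73.1 CPM in stimulated CD4, against 2.37 and 5.45 in naive CD4, and at 477 and 538 in stimulated CD8.

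Several naive class differences were not seen in stimulated cells. Myo10 measured 24.9 and 24.9 CPM in stimulated CD4 and 19.0 and 29.5 in stimulated CD8 (log2 0.05, edgeR adjusted p = 0.794). Gm43698, a lincRNA at chr5:67360387-67366599, fell to 0.175 and 0.342 CPM in stimulated CD4 and 0.241 and 0.310 in stimulated CD8. Ccl5, scaled to the total of each sum, measured 12.1 and 19.3 CPM in stimulated CD4 and 12.6 and 20.4 in stimulated CD8. Ribosomal protein genes made up 28.9% and 29.9% of UMIs in stimulated CD4 and 24.6% and 26.2% in stimulated CD8, the reverse of the naive order, and the difference between states was called for all 82 of them. State, time in culture and subset composition differ together between these groups and cannot be told apart.

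**Figure D5:**
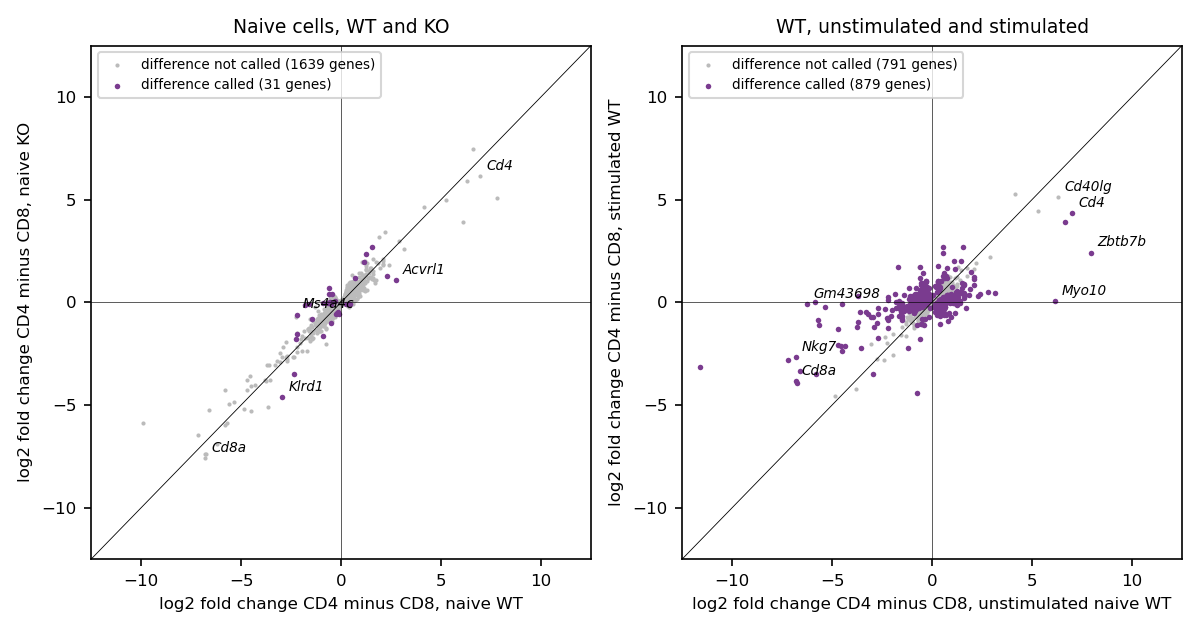
Log2 fold change of CD4 minus CD8 for the 1670 genes called in naive WT cells with at least 20 CPM in a class, in naive KO (left) and stimulated WT cells (right) against naive WT cells, with purple points where the difference between genotypes or states was called and a line of equal values. In the left panel 31 genes are purple and most points follow the line, and in the right panel 879 are purple and many, Myo10 and Gm43698 among them, lie near 0 on the vertical axis.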

How the data were processed

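Single-cell RNA was measured in 8 libraries (10x 3′ chemistry), and the authors deposited UMI counts of 20170 genes in 12846 cells, made with bcl2fastq and Cell Ranger on mm10, per the submitters' processing notes. The authors removed cells with very many genes and clusters without CD3 expression, and took class and subset from clusters. The cell table deposited by the authors also holds a mitochondrial percentage and a log10 Cd4/Cd8 ratio per cell. Both were recomputed from the counts and matched in every cell, within 0.001 for the percentage. Doublets were not called, and no cell of the naive classes was removed. Whether counting used strand is not given in the sources used here.

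UMIs were summed per library and class (edgeR 4.0.16 quasi-likelihood test, filterByExpr with a minimum count of 10 and total of 15, TMM, library as block, Benjamini-Hochberg adjusted p under 0.05). CD4 and CD8 sums come from the same library, which pairs them. Their deviations from the class means correlated at r = 0.161 over 4798 genes. With 2 pairs the smallest two-sided exact permutation p is 0.5, so the fit across genes was used. The difference between genotypes or states was an interaction term. Alternatives used DESeq2 1.42.0, limma 3.58.1, other scalings, no block, no filter, left-out libraries, other class definitions and thinning. Comparisons within a cluster name, and the KO contrasts with classes from each cell's own coreceptor UMIs, were added after the data were seen. The WT naive fit was run on simulated counts drawn at its own fitted spread, which cannot check that spread. Intervals and floors (3 UMIs over a class) cover counting error only.

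The cells compared and the gene lists were chosen with earlier results of these data known. Named genes were the class markers, the 12 largest called differences in each direction at 20 CPM or more, up to 4 called list members in each direction, the SDH subunits, and the 4 largest interactions in each direction. The 12 also had to differ in the same direction in both libraries. Genes named beside these (Cd28, Cd3d, Cd3e, Cd5, Cd69, Egr2, Gata3, H2-K1, Ighm, Il2rg, Il7r, Lck, Prf1, Rpl31, mt-Atp8, mt-Nd6 and the neighbours of the lineage loci) were chosen after their values were seen. Coordinates are GRCm38 (GENCODE M21), and promoters are RefSeq GRCm38.p6. Some genes of the lists are not reported here.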

Additional observations from a re-analysis of the deposited data

Results flagged for a closer look

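The class difference (log2, CD4 minus CD8) was compared between KO and WT naive cells, and the genes below had the largest called differences of it at 20 CPM or more, by edgeR's interaction test over 2 libraries a group. Klrd1, an NK receptor chain, differed by -1.68 (adjusted p = 2.92e-07) and was called in 9 of 10 settings. Ms4a4c differed by 1.62 (adjusted p = 4.43e-08), Ifit3 by 1.64 (adjusted p = 0.000796) and Nt5e, the ectonucleotidase CD73, by 1.54 (adjusted p = 0.00223), each called in 8 of 10 settings. Nt5e stood at 5.03 and 8.63 CPM in WT CD4, 18.2 and 23.8 in WT CD8, 13.6 and 10.6 in KO CD4 and 14.6 and 10.8 in KO CD8. Fam234a differed by 1.67 (adjusted p = 0.00253, 7 of 10 settings) and Egr1 by -1.25 (adjusted p = 0.0104, 6 of 10). Acvrl1 (-1.69, adjusted p = 0.0462) was called in 5 of 10 settings and Actn2 (-1.12, adjusted p = 0.0195) in 4 of 10.

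Between stimulated and naive WT cells the class difference moved by -7.61 for Pros1, -6.11 for Myo10, -5.52 for Zbtb7b and -4.29 for Cd81, and by 8.49 for Adgrg5, 6.75 for Aurkb, 6.66 for Unc13a and 6.16 for Gm43698. Pros1, Adgrg5, Aurkb and Unc13a had a naive class without UMIs, so their fitted values depend on the prior count and are no bound. Aurkb, a mitotic kinase, held at most 0.758 CPM in naive CD8 and none in naive CD4, against 45.4 to 58.3 CPM in stimulated cells. Pros1, Aurkb and Unc13a were not called without either unstimulated library. Myo10, Zbtb7b, Cd81, Adgrg5 and Gm43698 were called in 9 of 9 settings. Cd81, a tetraspanin, had 126 UMIs in naive CD4 and 2 in naive CD8, a ratio of 45.1 with a counting interval of 12.2 to 376, and stood at 69.6 and 66.9 CPM in stimulated CD4 and 30.8 and 36.1 in stimulated CD8.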

How the results depend on the processing

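Of 52 recomputed counts of called genes, 31 stayed within 1.5 times the reported count and 21 did not. For naive WT CD4 against CD8 (2399 genes), DESeq2's Wald test gave 560, a test against a 1.5-fold change 443, the largest cluster of each class 1480, and thinned cells of equal number 858, where fewer cells or UMIs entered in the last 2. CD4 and CD8 cells that share a cluster name gave 1281 (Naive1), 802 (Naive2), 729 (Naive3) and 382 (Naive4), an alternative chosen after seeing the data, with fewer cells. DESeq2 gave 631 genes for the KO contrast, 22 for the difference between genotypes and 878 for the difference between states. Without the filter on low counts the difference between genotypes gave 102. Library totals moved the split of the states difference to 606 higher and 1923 lower in stimulated cells, from 1017 and 691. In the KO contrast they gave 1443 genes higher in CD4 and 852 higher in CD8, from 1025 and 1199.

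Without the replicate block the counts were 1748 for WT, 1385 for KO, 1 for the difference between genotypes and 1221 for the difference between states. Leaving out a library gave 1151 to 2469 genes for WT, 1321 (without KO replicate 2) to 2361 for KO, 50 to 194 for the difference between genotypes (91 without KO replicate 1, 194 without KO replicate 2) and 758 to 2011 for the difference between states (758 and 1082 without each unstimulated WT library). The lone library was then assumed to vary like the others.

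Of 3073 values of 138 named genes under alternatives, 2688 kept direction and call, 369 lost the call, 5 gained it and 11 turned sign. The last were Ptpn6 (0.08755), Idh3g (0.02885), Mdh1 (0.1633), Rpsa (0.0197), Ctla4 (-0.1347) and Hspa8 (0.265) between the largest clusters, Klf2 in Naive3 (0.01317) and Naive4 (0.07163), Egr1 in Naive2 (-0.02672), Ikzf2 over all WT cells (1.613) and Trdc in limma (0.001884). The causes were not tested.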

Other observations

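Cd4 RNA in naive CD4 cells differed between genotypes. Scaled to the total of each sum, it stood at 152 and 153 CPM in the WT sums and 593 and 698 in the KO sums, and a Cd4 UMI was found in 64.8% and 66.0% of WT and 94.6% and 95.1% of KO naive CD4 cells. The KO mice carry a Cre transgene under the CD4 promoter. Whether reads from it were counted as Cd4 was not tested. The CD4 to CD8 difference of Cd4 was 6.97 in WT and 6.14 in KO on the log2 scale, and the difference between genotypes was not called (adjusted p = 0.772 by edgeR).

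Cd79b was higher in CD8 under each naive cluster name tested, with log2 differences of -3.60, -4.91, -4.40 and -4.83 for Naive1 to Naive4. Ms4a1, another B cell gene, had 1 UMI in these cells.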
